A study of Mus musculus with 16 samples.

Results

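The 10 genes studied here carry amino acids across the proximal tubule cell, or help such a carrier to the membrane, and were followed in renal cortex and isolated glomeruli of diabetic and control mice. They were named by gene and not by a cut on any measured value, though earlier results of these data were known. The members are Slc6a19, Slc6a18, Slc6a20b, Slc7a9, Slc3a1, Slc7a7, Slc7a8, Slc7a13, Slc1a1 and Cltrn (collectrin, formerly Tmem27). All 10 were found among the 34264 genes of the cortex table and among the 24722 genes of the glomerular table. The study profiled diabetic kidney disease by RNA sequencing. Its groups were diabetic cortex, control cortex, diabetic glomeruli and control glomeruli, with 4 libraries each, all from wild-type mice aged 24 weeks and all labelled batch 1. Diabetic mice had been fed a high-fat diet and given streptozotocin, which kills pancreatic beta cells (together HFD/STZ), so effects of the diet, of the toxin and of diabetes cannot be told apart. The sources used here give neither strain nor sex. The labels number the libraries but do not tie each to an animal of its own, so the p-values rest on the spread between libraries alone, and that spread may be technical.

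The proximal tubule takes back nearly all filtered amino acids. Carriers in the brush border move them from the filtrate into the cell, and other carriers in the basolateral membrane pass them on to the blood. Several carriers work only as pairs: a heavy chain such as the Slc3a1 product (rBAT) brings a light chain such as the Slc7a9 product to the membrane, and collectrin does the like for Slc6a19. Loss of the human genes SLC6A19, of SLC3A1 or SLC7A9, and of SLC7A7 causes Hartnup disorder, cystinuria and lysinuric protein intolerance.

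Total counts per library were 60628981 to 72352656 in diabetic cortex, 57473100 to 69947387 in control cortex, 36339294 to 40696477 in diabetic glomeruli and 40001932 to 41876031 in control glomeruli. Diabetic glomerular libraries 1 and 4, and control glomerular libraries 3 and 4, were far closer to each other than other pairs. The chi-square per gene was 6.69 for the diabetic pair, where other diabetic pairs had 66.2 to 97.9, and 2.76 for the control pair, where other control pairs had 45.7 to 84.4. The counts of each pair were summed, leaving 3 samples a group in glomeruli. The tissues matched their labels: in control glomeruli against control cortex all 10 podocyte markers were higher and all 19 proximal tubule markers were lower. Some libraries stood apart from their group in part of the genes. Cortex control library 4 was near the diabetic libraries in several members. Diabetic glomerular sample 2 was near the controls in most members, but not in injury genes or Slc6a6 (values below).

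Slc6a19 (chr13:73679745-73704865, minus strand, GRCm38) and Slc6a18 (chr13:73661752-73678023, minus strand) are neighbours with 1721 bases between them. Slc7a7 (chr14:54369442-54417780) and Slc7a8 (chr14:54722209-54781946) lie on chromosome 14, and the other members are on chromosomes 9, 7, 17, 4, 19 and X. The 250 bases before the annotated start were searched on both strands for 2 short motifs of factors that act in the proximal tubule. These were the HNF4 core CAAAGT and the HNF1 half-site GTTAAT. RefSeq starts can differ from those of the GENCODE gene spans given here, and the RefSeq start of Slc6a19 lies inside its GENCODE span. RefSeq windows (GRCm38.p6) were found for 8 of the 10 members, all but Slc6a18 and Slc7a13, as 14 windows. CAAAGT was in 2 of the 14 windows (14.3%), 1 each of Slc3a1 and Slc7a7, near the 12.6% of 32851 promoters that held it. GTTAAT was in windows of 2 members, 1 each of Slc7a7 and Cltrn, and in 6.43% of all promoters. The windows below are shown because Slc6a19 changed most in cortex and Slc3a1 is the shared heavy chain. Capitals mark the HNF4 core, and the Slc6a19 window (chr13:73692637-73692886, minus strand) did not hold it. In the Slc3a1 window (chr17:85028097-85028346, plus strand) the core began 39 bases before the start.
Slc6a19: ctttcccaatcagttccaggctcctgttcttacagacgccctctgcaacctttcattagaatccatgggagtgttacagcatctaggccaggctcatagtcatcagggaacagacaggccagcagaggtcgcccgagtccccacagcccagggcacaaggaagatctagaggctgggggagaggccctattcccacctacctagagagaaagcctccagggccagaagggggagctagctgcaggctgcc
Slc3a1: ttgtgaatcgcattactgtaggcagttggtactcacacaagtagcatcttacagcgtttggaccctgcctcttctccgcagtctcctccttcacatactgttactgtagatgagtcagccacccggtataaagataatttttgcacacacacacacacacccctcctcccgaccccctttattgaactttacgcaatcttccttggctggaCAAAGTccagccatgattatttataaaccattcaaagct

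In cortex, the first question was how the transporter genes differed between diabetic and control kidneys. Slc6a19 fell most, to 41.3% of its control level, and Slc7a8, Slc7a13, Slc6a20b and Slc3a1 also fell, while the neighbour of Slc6a19, Slc6a18, had a higher mean in diabetic cortex that did not pass the test. Of the 10 members 5 fell, 0 rose and 5 did not pass (edgeR quasi-likelihood test, Benjamini-Hochberg adjusted over all genes, threshold 0.05), where 9.29% of the 19228 genes tested fell and 10.8% rose. By the same test 1 member, Slc6a18, was higher at an unadjusted p under 0.05, and DESeq2 called 0 higher. The members' median log2 fold change was -0.32, against -0.00 over all genes. Diabetic and control libraries did not overlap for 4 members (Slc6a19, Slc6a20b, Slc3a1 and Slc7a13), against 24.9% of genes tested. In bulk tissue, fewer proximal tubule cells and less RNA per cell cannot be told apart.

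Slc6a19 encodes B0AT1, the main brush-border carrier of neutral amino acids. Its level, in CPM (read counts scaled to the size of each library), was 150, 145, 140 and 204 in diabetic cortex, against 445, 437, 357 and 311 in control cortex. Every diabetic library lay below every control library, and diabetic library 4 stood above the other 3. The log2 fold change was -1.28 ± 0.15 (SE; edgeR adjusted p = 0.000923). Slc6a18 encodes B0AT3, a related carrier of glycine and other neutral amino acids. It had 736, 745, 626 and 578 CPM in diabetic cortex, against 507, 493, 467 and 669 in control cortex. Control library 4 lay within the diabetic range and the other 3 controls below it, and the log2 fold change was 0.33 ± 0.13 (edgeR adjusted p = 0.0970).

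Cltrn, which has no transport activity of its own, had 1108, 1156, 1093 and 1223 CPM in diabetic cortex, against 1519, 1684, 1376 and 1088 in control cortex. Control library 4 was the lowest of all 8, so the groups overlapped, and the log2 fold change of -0.31 ± 0.12 did not pass (edgeR adjusted p = 0.108). Slc6a20b is one of the mouse copies of SLC6A20, the human imino acid carrier gene. It had 327, 324, 283 and 298 CPM in diabetic cortex, against 386, 428, 399 and 340 in control cortex. The groups did not overlap, and it fell by 0.33 ± 0.08 on the log2 scale (edgeR adjusted p = 0.0197).

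The cystine system pairs Slc3a1 with Slc7a9 in the early tubule and with Slc7a13, the aspartate and glutamate carrier AGT1, in the late straight segment (S3). Slc3a1 had 655, 584, 540 and 509 CPM in diabetic cortex, against 706, 679, 668 and 733 in control cortex. The groups lay close but did not overlap, and it fell by 0.28 ± 0.09 on the log2 scale (edgeR adjusted p = 0.0425). Slc7a13 had 933, 662, 608 and 505 CPM in diabetic cortex, against 989, 1130, 1153 and 1180 in control cortex. Diabetic library 1 was near the controls and the other 3 were well below them, and the log2 fold change was -0.72 ± 0.16 (edgeR adjusted p = 0.0144). Slc7a9, the light chain b0,+AT, had 109, 108, 97.6 and 118 CPM in diabetic cortex, against 134, 134, 123 and 114 in control cortex. Diabetic library 4 lay above control library 4, and the log2 fold change of -0.22 ± 0.08 did not pass (edgeR adjusted p = 0.0647).

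Of the basolateral light chains, Slc7a8 (LAT2, neutral amino acids) had 115, 124, 121 and 155 CPM in diabetic cortex, against 268, 242, 207 and 147 in control cortex. Only control library 4 lay inside the diabetic range, and Slc7a8 fell by 0.75 ± 0.18 on the log2 scale (edgeR adjusted p = 0.0172). Slc7a7 (y+LAT1, the exit path for lysine and arginine) had 120, 132, 112 and 157 CPM in diabetic cortex, against 178, 183, 164 and 140 in control cortex. Diabetic library 4 lay above control library 4, and the log2 fold change of -0.35 ± 0.12 did not pass (edgeR adjusted p = 0.0569). Slc1a1, the brush-border glutamate carrier EAAT3, had 304, 317, 284 and 297 CPM in diabetic cortex, against 336, 373, 335 and 308 in control cortex. The ranges overlapped at control library 4, and the log2 fold change was -0.17 ± 0.07 (edgeR adjusted p = 0.128).

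**Figure D1:**
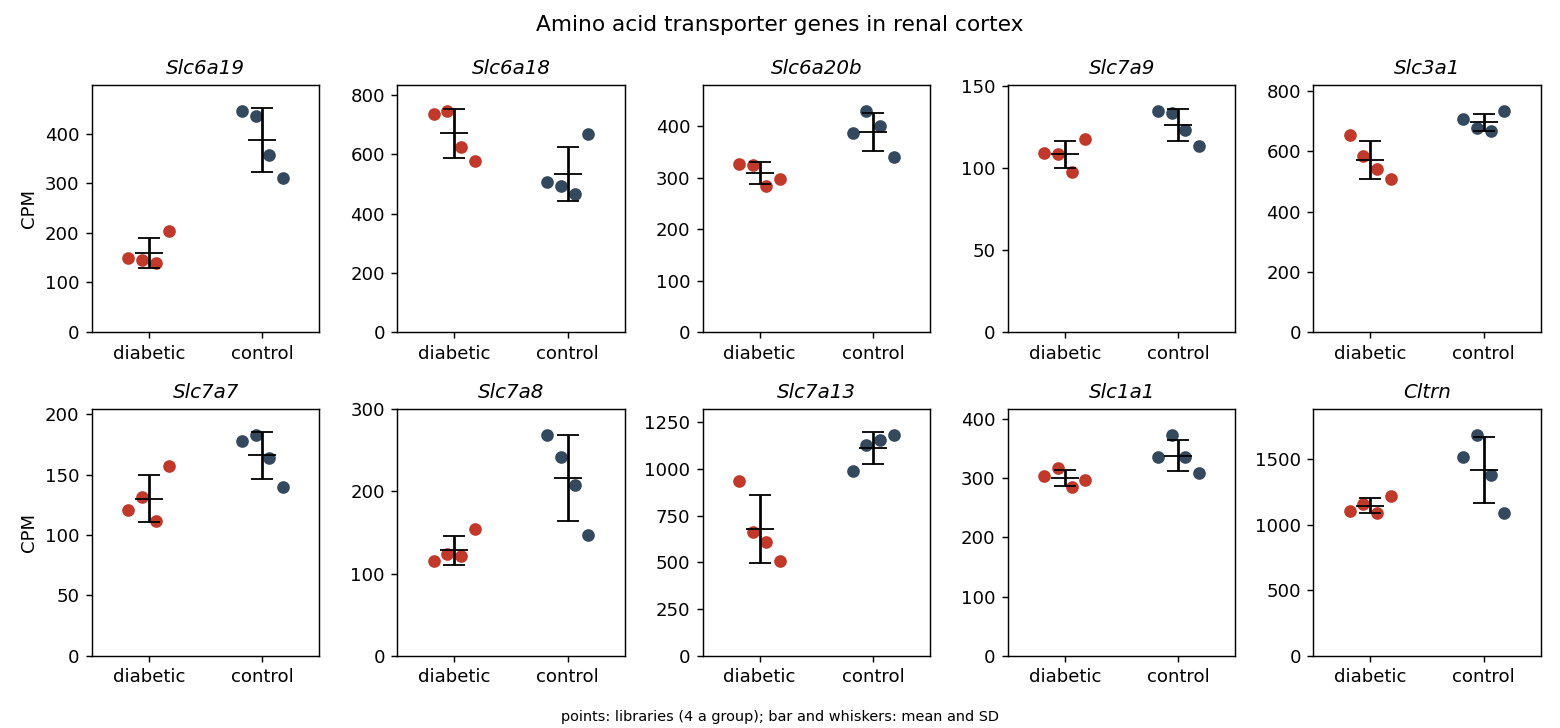
Level of each gene in renal cortex in CPM (linear axes from 0), diabetic left of control. Points are libraries, 4 a group, and bar and whiskers are mean and SD; for Slc6a19 the diabetic libraries lie between 140 and 204 CPM, below all 4 control libraries.

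Control library 4 was near the diabetic libraries in several of these genes, but not in distal tubule markers. Its summed level of 6 early proximal tubule (S1 and S2) markers, of which Slc34a1 had by far the highest control mean, was 4983 CPM. That sum lay within the 4963 to 6540 of diabetic cortex and below the 8491 to 8995 of the other control libraries. The summed level of 12 distal markers in control library 4 was 9036 CPM, above both the 5089 to 6563 of diabetic cortex and the 5492 to 6877 of the other control libraries. Without it, 9 members fell and 1, Slc6a18, rose (edgeR adjusted p = 0.00534), while 11.5% of all genes fell and 12.7% rose. The count of members that fell was 3 without control library 2, 3 without control library 3, 3 without diabetic library 2 and 2 without diabetic library 3, while 6.56%, 6.94%, 5.67% and 5.55% of all genes fell. Slc6a19 and Slc7a13 were called lower under all 14 alternatives run in cortex, with Slc6a19 log2 fold changes between -1.42 and -1.20 and Slc7a13 between -0.91 and -0.60.

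Levels of different genes were compared per length, in FPKM. In diabetic cortex the order of median levels was Cltrn (701 FPKM), Slc7a13 (286), Slc3a1 (238), Slc6a18 (144), Slc7a9 (37.6), Slc7a7 (35.3), Slc1a1 (33.4), Slc6a20b (33.4), Slc6a19 (27.5) and Slc7a8 (23.5). Ranges of neighbours overlapped for Slc7a13 and Slc3a1 and for all neighbours from Slc7a9 down. In control cortex it was Cltrn (853 FPKM), Slc7a13 (474), Slc3a1 (275), Slc6a18 (101), Slc6a19 (70.3), Slc7a7 (46.3), Slc7a9 (42.6), Slc6a20b (41.8), Slc7a8 (39.9) and Slc1a1 (36.9). There the first 5 were each clear of the next, and neighbours from Slc7a7 down overlapped. Slc6a19 thus stood at place 9 in diabetic cortex and at place 5 in control cortex.

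Partner and neighbouring genes were then set against each other within each cortex library, as ratios of FPKM. Means and SDs are of the ratios themselves, and the permutation tests were run on log2 ratios. The ratio of Slc6a18 to Slc6a19 was 3.20 to 5.81 in diabetic cortex (mean 4.91 ± 1.18, SD, n = 4) and 1.28 to 2.44 in control cortex (1.62 ± 0.55, n = 4). These ranges did not overlap (exact permutation test, two-sided, p = 0.0286, the smallest that 4 against 4 can give). The ratio of Slc6a19 to its helper Cltrn was 0.0429 ± 0.0059 in diabetic cortex and 0.0846 ± 0.0054 in control cortex (SD, n = 4 each; exact permutation p = 0.0286), again without overlap. For the cystine pair, Slc7a9 over Slc3a1 was 0.162 ± 0.024 in diabetic cortex and 0.154 ± 0.016 in control cortex (SD, n = 4 each; exact permutation p = 0.629). With the S3 light chain, Slc7a13 over Slc3a1 was 1.24 ± 0.19 in diabetic cortex and 1.70 ± 0.15 in control cortex (SD, n = 4 each; exact permutation p = 0.0571). Slc7a13 over Slc7a9 was 7.88 ± 2.20 in diabetic cortex and 11.1 ± 1.6 in control cortex (SD, n = 4 each; exact permutation p = 0.0857). Between the basolateral light chains, Slc7a8 over Slc7a7 was 0.656 ± 0.042 in diabetic cortex and 0.854 ± 0.124 in control cortex (SD, n = 4 each; exact permutation p = 0.0571). The overlap was through control library 4, and the other 3 controls lay at 0.840 to 0.998, above the diabetic maximum of 0.716. By the exact test a ratio could pass adjustment only if most of the other ratios also had the smallest p, 0.0286. After adjustment over the 6 ratios 0 passed by the exact test, and 2 had an unadjusted p under 0.05. The lowest adjusted p, 0.0857, was shared by 4 of them.

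**Figure D2:**
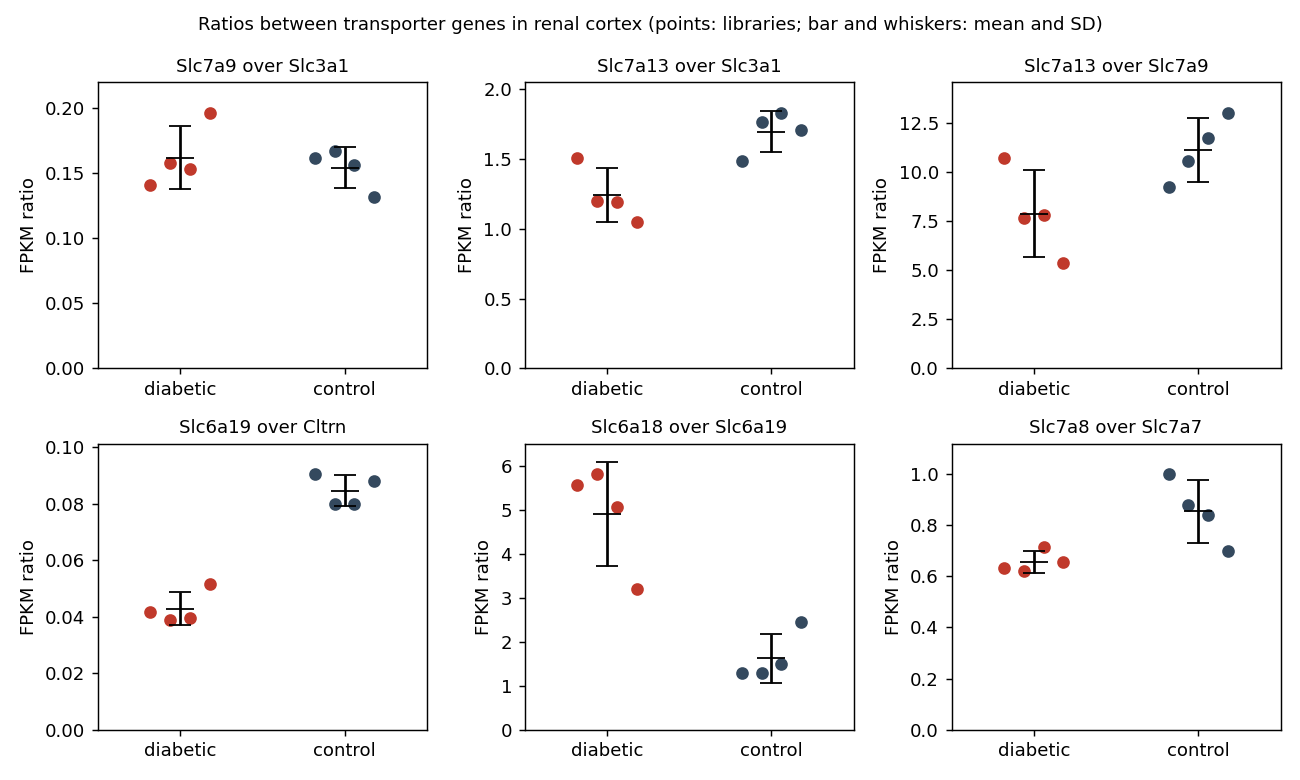
FPKM ratios between partner or neighbouring genes in each cortex library (linear axes from 0), diabetic left of control, with mean and SD of 4 libraries a group. Slc6a18 over Slc6a19 lies at 3.20 or above in diabetic and at 2.44 or below in control libraries.

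Other proximal tubule genes were also lower in diabetic cortex. Of 19 proximal tubule markers 7 fell and 1 rose (median log2 fold change -0.27), with summed levels of 21363 to 24774 CPM in diabetic and 23665 to 34653 CPM in control cortex. The overlap was through control library 4, and the other 3 controls had 31672 to 34653 CPM. No marker was at 0 in any library. Of 6 S1 and S2 markers 2 fell: the sodium-lactate carrier Slc5a12 by 1.14 ± 0.12 and the glucose carrier Slc5a2 by 1.01 ± 0.20 on the log2 scale. Of 6 S3 markers 4 fell, among them the anion carrier Slc22a7 (-1.15 ± 0.24). Set against the geometric mean of the proximal tubule markers in the same library, Slc6a19 was still lower by a log2 difference of -1.05 and Slc7a8 by -0.50 (exact permutation p = 0.0286 each, adjusted over the 10 members 0.143). The difference was -0.52 for Slc7a13 and 0.56 for Slc6a18 (exact permutation p = 0.0857 each). It lay between -0.13 and 0.06 for the other 6. Here too a member could pass adjustment only if most of the other members also had the smallest exact permutation p, 0.0286. After adjustment 0 of 10 passed by the exact test, and 2 had an unadjusted p under 0.05. Immune markers and injury genes moved as well: 9 of 10 immune markers rose (summed level 482 to 775 CPM in diabetic and 168 to 280 CPM in control cortex). Of 10 tubule injury genes 7 rose, among them Cdkn1a (log2 fold change 3.56 ± 0.29) and Havcr1, kidney injury molecule 1 (4.59 ± 0.57). Their part in the members' changes was not tested. Of 12 distal tubule markers 1 rose and 4 fell, of 10 podocyte markers 1 rose and 3 fell, and 0 of 10 mesangial and endothelial markers passed with edgeR.

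The other amino acid transporters did not share one direction in cortex. Of 31 such genes 29 were tested, and 1 rose, 4 fell and 24 did not pass, with a median log2 fold change of -0.00. The gene that rose was Slc38a3 (SNAT3), the basolateral carrier that brings glutamine into the cell for ammonia production. Its level was 114 to 158 CPM in diabetic and 46.4 to 67.8 CPM in control cortex, without overlap (log2 fold change 1.29 ± 0.13, edgeR adjusted p = 0.00045). Those that fell were the aromatic amino acid carrier Slc16a10 (TAT1; -0.73 ± 0.12), the arginine and lysine carrier Slc7a2 (-0.96 ± 0.17), Slc38a4 (-0.83 ± 0.25) and Slc6a20a (-0.29 ± 0.08), the other mouse copy of SLC6A20. Slc3a2, the heavy chain that Slc7a7 and Slc7a8 need, had 196 ± 25 CPM in diabetic and 216 ± 38 CPM in control cortex (SD, n = 4 each; edgeR adjusted p = 0.501). Of 11 brush-border peptidases, which release amino acids from peptides, 5 fell, among them Ace (-0.84 ± 0.14), Xpnpep2 (-0.90 ± 0.16), Dpep1 (-0.67 ± 0.13) and Mep1b (-0.94 ± 0.22).

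Hnf4a and Maf, which encode transcription factors active in the proximal tubule, fell in cortex. Hnf4a, whose core motif is in the Slc3a1 window printed above, had 612 ± 60 CPM in diabetic and 802 ± 73 CPM in control cortex (SD, n = 4 each; log2 fold change -0.39 ± 0.10). Maf fell by 0.79 ± 0.12 on the log2 scale. Whether either factor acts on the members was not tested.

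Across the 8 cortex libraries, the genes whose log2 CPM most resembled the members' mean were Prkaa2, a catalytic subunit of AMP-activated kinase (Pearson r 0.995), the sterol synthesis enzyme Lss (0.994), the folate enzyme Mthfd1 (0.993), Ccser2 (0.990) and Fam210a (0.988), out of 9708 genes ranked. These values describe 8 libraries that also differ by group. Among the members, Slc6a18 ran opposite to that mean (r -0.72) and the other 9 ran with it (r 0.77 to 0.97).

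The glomerulus itself, with its podocytes, capillaries and mesangium, has no proximal tubule cells, and the same genes were low in isolated glomeruli. In control glomeruli 8 of the 10 had at most 8.38 CPM in any sample, and Slc7a7 and Slc7a8 had 8.70 to 14.9 CPM. Diabetic glomeruli had more: 5 members rose (Slc6a19, Slc6a18, Slc3a1, Cltrn and Slc7a7), 0 fell and 5 did not pass, where 19.4% of the 15238 genes tested rose and 18.2% fell (edgeR). At an unadjusted p under 0.05 by edgeR 0 were lower, and by DESeq2 0 were lower. The members' median log2 fold change was 3.02, against 0.01 over all genes. The groups did not overlap for 4 members (Slc6a19, Slc6a18, Slc3a1 and Slc7a7), against 54.2% of genes tested.

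The rise was uneven between the diabetic samples. Slc6a18 had 21.0 CPM in diabetic sample 1+4, 1.78 in sample 2 and 11.7 in sample 3, against 1.07, 1.24 and 0.60 in control samples 1, 2 and 3+4 (log2 fold change 3.59 ± 0.86, edgeR adjusted p = 0.0188). Slc6a19 had the like pattern, with 1.30 to 20.9 CPM in diabetic and 0.57 to 0.83 CPM in control glomeruli (3.96 ± 0.93, edgeR adjusted p = 0.0175). In both genes samples 1+4 and 3 were far above the controls and sample 2 only just above them.

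Cltrn had 82.5, 7.81 and 33.4 CPM in diabetic samples 1+4, 2 and 3, against 8.38, 4.68 and 3.42 CPM in control samples 1, 2 and 3+4 (2.92 ± 0.83, edgeR adjusted p = 0.0325). Sample 2 lay below control sample 1. Slc3a1 had 22.6, 1.87 and 10.8 CPM in diabetic glomeruli, against 1.18, 1.32 and 1.17 CPM in control glomeruli (3.27 ± 0.82, edgeR adjusted p = 0.0216). Its partners did not pass. Slc7a9 had 8.57, 0.14 and 3.57 CPM in diabetic glomeruli, against 0.30, 0.32 and 0.37 CPM in control glomeruli (3.63 ± 1.20, edgeR adjusted p = 0.0527). Slc7a13 had 3.64, 0.94 and 1.93 CPM in diabetic glomeruli, against 1.72, 1.40 and 0.58 CPM in control glomeruli (0.84 ± 0.60, edgeR adjusted p = 0.308). Diabetic sample 2 was the lowest of all samples for Slc7a9 and inside the control range for Slc7a13.

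Slc6a20b and Slc1a1 followed the same order of samples, with 0.37 to 10.9 and 0.73 to 12.8 CPM in diabetic glomeruli, against 0.35 to 0.79 and 0.90 to 1.13 CPM in control glomeruli, and did not pass (edgeR adjusted p = 0.0583 and 0.0560). The basolateral light chains were less uneven. Slc7a7 had 24.0, 15.1 and 24.8 CPM in diabetic glomeruli, against 9.46, 14.9 and 8.70 CPM in control glomeruli (0.95 ± 0.27, edgeR adjusted p = 0.0342). Slc7a8 had 35.8, 12.7 and 23.2 CPM in diabetic glomeruli, against 12.7, 14.3 and 10.4 CPM in control glomeruli (0.94 ± 0.36, edgeR adjusted p = 0.0800).

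**Figure D3:**
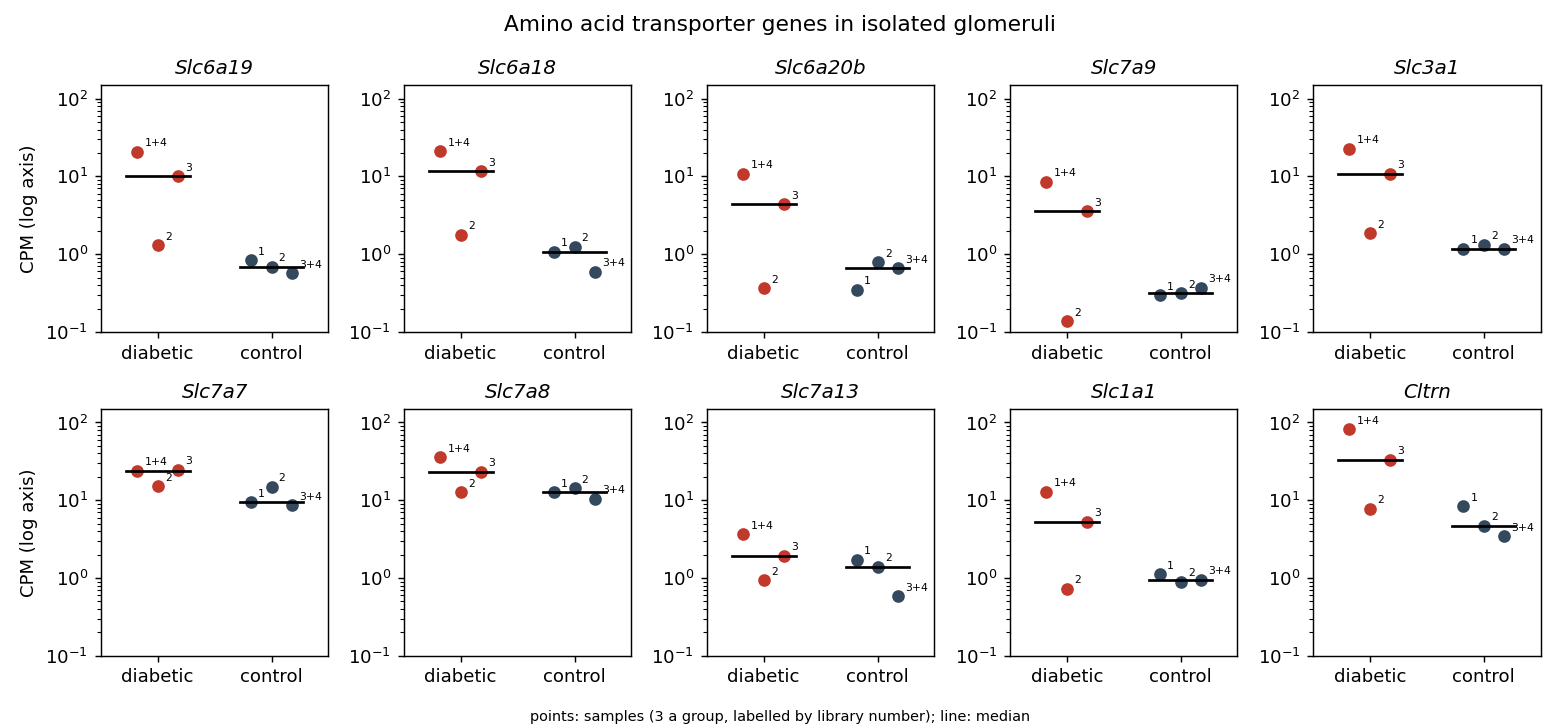
Level of each gene in isolated glomeruli in CPM (log axis), diabetic left of control. Points are samples, 3 a group, labelled with the library numbers they hold, and the line is the median; diabetic sample 2 lies near the control samples for most genes, as at 1.30 CPM for Slc6a19.

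Without diabetic libraries 1, 3 and 4 only sample 2 is left in the diabetic group, and it is assumed to vary as the 3 control samples do. Compared in this way 0 members were called higher with edgeR, against 8.56% of all genes, and the log2 fold changes of Slc6a20b (-0.70), Slc7a9 (-1.23), Slc7a13 (-0.35) and Slc1a1 (-0.41) changed sign. The count of members that rose was 9 without diabetic library 2, 1 without libraries 1 and 4, and 3 without library 3, while 16.5%, 14.2% and 17.6% of all genes rose in these fits. It was 0 without control library 1, 2 without control library 2 and 0 without control libraries 3 and 4, while 13.6%, 16.4% and 13.2% of all genes rose. Other tubule genes were higher too. Of 19 proximal tubule markers 18 rose, with summed levels of 1531, 239 and 777 CPM in diabetic samples 1+4, 2 and 3, against 113 to 138 CPM in control glomeruli. None of the 19 was at 0 in any library. Of 6 S1 and S2 markers 4 rose, and 3 of 5 tested S3 markers. Of 10 distal markers tested 7 rose, with 1750, 75.5 and 797 CPM in diabetic samples 1+4, 2 and 3, against 55.5 to 76.2 CPM in control glomeruli. Podocyte markers summed to 2243 to 4455 CPM in diabetic and 4681 to 5877 CPM in control glomeruli, with 2 of 10 lower, and 1 of 10 mesangial and endothelial markers fell. Xist was at 61.8, 7.53 and 25.6 CPM in diabetic samples 1+4, 2 and 3, against 6.63 to 12.3 CPM in control glomeruli, beside Ddx3y on the Y chromosome at 74.4 CPM or more in every sample, and 0 of 5 sex-linked genes passed with edgeR. In cortex Xist was at most 0.23 CPM and 1 of the 5 fell. Of 10 injury genes 5 rose, with summed levels of 6864, 7538 and 6649 CPM in diabetic samples 1+4, 2 and 3, against 821 to 1780 CPM in control glomeruli. Of 9 immune markers tested 3 rose and 1 fell. The part of these in the members' rise was not tested.

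To put genes of different level on one scale, each member's level in a diabetic glomerular sample was expressed as a share of its mean level in diabetic cortex, after scaling both tables together. The shares rest on tables made on different annotations, which can shift a gene alone. In sample 1+4 the members' median share was 4.75%, in sample 2 0.24% and in sample 3 1.96%. The same medians over the proximal tubule markers were 5.29%, 0.29% and 2.53%. The members spread widely around them in sample 1+4: Slc7a8 was at 23.1%, Slc7a7 at 15.3%, Slc6a19 at 10.8%, Slc7a9 at 6.56%, Cltrn at 5.96%, and the other brush-border genes Slc1a1, Slc3a1, Slc6a20b and Slc6a18 at 2.59% to 3.53%. Slc7a13 was lowest at 0.44%. The S1 and S2 markers had a median of 10.1% in that sample, the S3 markers one of 2.10% (with Atp11a at 20.7%) and the distal markers one of 16.6%. A share also depends on the cortex level beneath it: as a share of control cortex, Slc6a19 was at 4.45% and Slc7a13 at 0.27% in that sample. For Slc7a7 and Slc7a8 part of the share was there in control glomeruli, at 4.34% to 7.09% and 3.98% to 5.25% of control cortex.

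**Figure D4:**
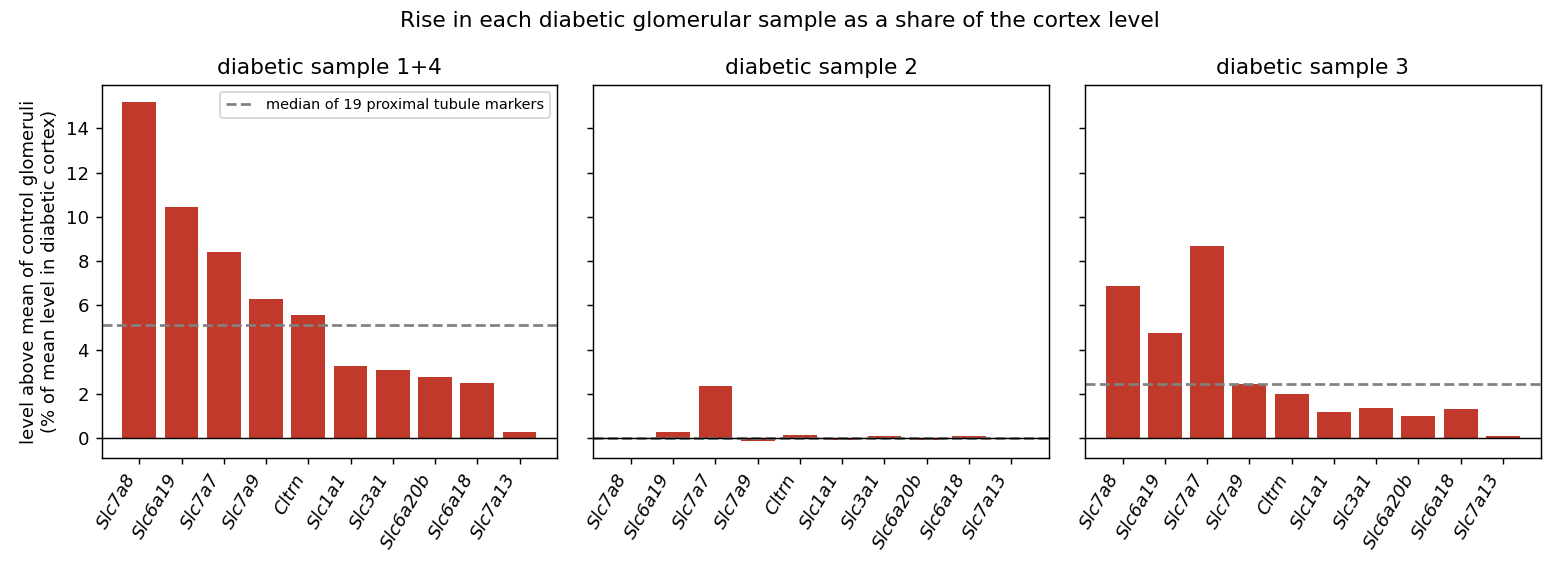
Level in each diabetic glomerular sample above the mean of control glomeruli, as a percentage of the gene's mean level in diabetic cortex (linear axis), with the median of 19 proximal tubule markers as a dashed line. Sample 1+4 runs from 0.30% for Slc7a13 to 15.2% for Slc7a8, and in sample 2 no gene is above 2.37%.

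The genes most like the members' mean over the 6 glomerular samples, out of 9875 ranked, were Acsm2 (Pearson r 1.000), Miox (0.999), S100g (0.998), Slc27a2 (0.997) and Slc34a1 (0.997), of which Acsm2, Miox, Slc27a2 and Slc34a1 are among the 19 proximal tubule markers. These 6 samples share the contrast between diabetic sample 1+4 and the rest.

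Of the 31 other amino acid transporter genes 23 were tested in glomeruli, and 12 rose, 2 fell and 9 did not pass (median log2 fold change 0.63). The genes named next have the smallest adjusted p, a choice that favours little spread between samples. Slc16a10 had 17.3 to 22.6 CPM in diabetic and 1.93 to 4.10 CPM in control glomeruli (2.76 ± 0.30). Slc38a1, a glutamine carrier, had 106 to 131 CPM in diabetic and 32.5 to 51.5 CPM in control glomeruli (1.57 ± 0.20). The large neutral amino acid carrier Slc7a5 had 115 to 134 CPM in diabetic and 58.5 to 70.4 CPM in control glomeruli (0.90 ± 0.11), and its heavy chain Slc3a2 had 184 to 209 CPM in diabetic and 147 to 158 CPM in control glomeruli (0.36 ± 0.08). Slc1a5, a neutral amino acid exchanger, rose by a log2 fold change of 1.92 ± 0.26. Among the risers with wider errors, the peptide carrier Slc15a2 had 10.2, 3.86 and 6.50 CPM in diabetic samples 1+4, 2 and 3, against 2.04 to 3.33 CPM in control glomeruli (1.43 ± 0.39). The taurine carrier Slc6a6 fell, with 563, 617 and 677 CPM in diabetic samples 1+4, 2 and 3, against 7803, 3421 and 7308 CPM in control samples 1, 2 and 3+4 (-3.32 ± 0.33, edgeR adjusted p = 0.00102), and Slc36a4 fell by 0.92 ± 0.08 on the log2 scale. In cortex Slc6a6 had 294 ± 32 CPM in diabetic and 308 ± 50 CPM in control libraries (SD, n = 4 each). Of 9 brush-border peptidases tested 4 rose.

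Between tissues without diabetes, all 10 members were lower in control glomeruli than in control cortex, where 39.7% of the 16305 genes in both tables were lower and 38.7% higher (edgeR). The log2 fold changes were -4.23 ± 0.24 for Slc7a7 and -4.42 ± 0.35 for Slc7a8, and from -10.18 for Slc7a13 to -8.33 for Cltrn among the other 8. The median was -9.15, against -0.04 over all genes. The annotation and counting of the tables differed, so part of such a level difference can come from that alone.

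The diabetic effect differed between the tissues for all 10 members, each with a larger log2 fold change in glomeruli than in cortex (edgeR interaction, adjusted p 0.000755 to 0.0407), where 18.8% of genes had a larger one and 16.3% a smaller one. It also differed, in the same direction, for all 19 proximal tubule markers (median log2 difference 3.72) and all 12 distal markers (4.24). Any constant bias of a gene in one of the tables drops out of this contrast. The difference was widest for Slc6a19 (5.28 ± 0.89), the gene with the largest fall in cortex, and narrowest for Slc7a7 (1.32 ± 0.29). The median was 3.28, against 0.04 over all genes. Without diabetic glomerular libraries 1, 3 and 4, which leaves 1 diabetic glomerular sample that is assumed to vary like the other groups, it was called for 2 members, Slc6a19 (2.17 ± 0.39) and Slc3a1 (0.86 ± 0.20), and for 10.3% of all genes in that direction.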

How the data were processed

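Per the labels' protocols, total RNA came from the Qiagen RNeasy mini plus kit and libraries from a SMARTER mRNA-Seq kit. Builds GRCm38 and mm10 appear in the submitters' processing notes. Aligner, counter, annotation and use of strand are not given in the sources at hand, so reads shared with overlapping or near-identical genes (Slc6a20b and Slc6a20a, for example) are uncertain. The authors deposited whole-number read counts for glomeruli. For cortex they deposited estimated counts (expected counts) made whole, as judged from the values, and used here with no further rounding. FPKM values deposited by the authors for both tissues, which divide by length and library size, served to compare genes with each other.

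Symbols and positions came from GENCODE M21 (GRCm38), and the tables were joined at 18796 genes. Each tissue was fitted with edgeR 4.0.16 (R 4.3.3; filterByExpr, TMM, robust quasi-likelihood), and contrasts between tissues in 1 model of the joined genes. The design had 4 against 4 glomerular libraries. The near-identical pairs were summed after the counts were seen, and the separate libraries kept as an alternative. Ratios and levels over markers were tested by exact permutation of the difference between group means on the log2 scale (scipy 1.17.1). Alternatives were DESeq2 1.42.0, limma 3.58.1 on log2(FPKM + 1) or log2(FPKM + 0.1), other scaling, no filter, and leaving out libraries. The fit was tested on simulated data. Within each tissue, diabetic and control libraries of the same number showed no pairing by correlation. Whether cortex and glomerular libraries of the same number came from the same animal was not tested. The model of the joined genes treated them as separate. Members and gene lists were chosen with earlier results of these data known. Named genes were the 10 members, up to 6 genes per list with the smallest adjusted p, and the 5 most alike per tissue whose mean log2 CPM was 3 or more. Slc3a2, Slc15a2 and, in cortex, Slc6a6 were named outside that rule after their values were seen.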

Additional observations from a re-analysis of the deposited data

Results flagged for a closer look

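Slc6a19 in diabetic cortex library 4, at 204 CPM, stood apart from the other 3 diabetic libraries: its gap to the nearest was 0.850 of the group's range. This was 1 of 20 groups of 4 cortex libraries tested, and chance flags about 1 in 20.

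The effect of HFD/STZ on all 10 genes differed between glomeruli and cortex by the edgeR interaction test, where 18.8% of all genes were called higher and 16.3% lower. All 19 proximal tubule markers and all 12 distal markers were called in the same direction as the members. The log2 differences, glomeruli minus cortex, were 5.28 for Slc6a19, 3.31 for Slc6a18, 3.48 for Slc6a20b, 3.89 for Slc7a9 and 3.58 for Slc3a1. They were 1.32 for Slc7a7, 1.71 for Slc7a8, 1.64 for Slc7a13, 2.87 for Slc1a1 and 3.25 for Cltrn.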

How the results depend on the processing

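In cortex the count of members that fell, 5 as reported, was 8 with DESeq2 and 3 with a replicate block. Of all genes 6.83% and 5.13% fell in these fits. Leaving out 1 library, 2 to 9 members fell, against 5.55% to 11.5% of all genes. The count that rose was 0 to 1 over the alternatives, against 6.21% to 12.7% of all genes. In glomeruli the count that rose, 5 as reported, was 8 with library totals in place of TMM, 9 with DESeq2 and 1 with no filter on low counts. Of all genes 28.8%, 14.6% and 11.3% rose in these fits. With limma on log2(FPKM + 1), 8 separate libraries, and these with a replicate block, 26.5%, 26.0% and 23.7% rose. The count of members that rose was 1, 9 and 8 in those fits. It was 0 to 9 when leaving out 1 sample and 0 without diabetic libraries 1, 3 and 4. The difference between tissues, called for all 10, was called for 2 without those libraries, which leaves 1 diabetic glomerular sample that is assumed to vary like the other groups. There Slc6a20b (-0.45), Slc7a9 (-1.11) and Slc1a1 (-0.31) changed sign, as did Slc6a20b (-0.70), Slc7a9 (-1.23), Slc7a13 (-0.35) and Slc1a1 (-0.41) in glomeruli alone. The causes were not tested. The all-gene median in glomeruli moved from 0.01 to 0.20 with library totals, and the share of calls that were higher from 51.6% to 72.6% (71.5% with limma on log2(FPKM + 0.1)). In cortex that share moved from 53.7% to 65.3% with limma on log2(FPKM + 1), and for the difference between tissues from 53.6% to 69.0% with library totals. Small log2 values near 0 changed sign in cortex: leaving out 1 library, Slc7a9 over Slc3a1 ran from -0.029 (without diabetic library 4) to 0.13, Slc7a9 over the markers from -0.025 (without control library 3) to 0.057, and Slc3a1 over the markers from -0.13 to 0.064 (without control library 4). With Slc5a2 and Slc2a2 out of the marker list, Slc7a9 over the markers was -0.029. In their deviations from group means, same-numbered diabetic and control libraries of a tissue correlated between -0.107 and 0.107. The best match had the same number for 1 diabetic library in cortex and 2 in glomeruli. Depth limits the glomerular values: the lowest count of a member in a library was 6.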
